A study of Mus musculus with 3 samples.

Results

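JAK and STAT genes encode the kinases and transcription factors through which many cytokine receptors signal. The 9 genes described here are the kinases Jak1, Jak2, Jak3 and Tyk2 and the factors Stat2, Stat3, Stat4, Stat5a and Stat6. They were chosen by gene name on the array, and every probe under one of these names was used, which gave 17 of 56605 probes and 9 of 36870 gene names. Jak1, Stat4 and Stat6 have 1 probe each, while Jak2, Tyk2, Stat2 and Stat5a have 2 and Jak3 and Stat3 have 3. The genes were measured in RAW264.7 cells, a mouse macrophage line transformed by a leukaemia virus. The study asked how Lactiplantibacillus plantarum strains isolated from tea leaves change the response of these cells to lipopolysaccharide (LPS), a part of the outer membrane of Gram-negative bacteria that is sensed by TLR4. One group received LPS alone, another the strain LOC1 and then LPS, and the third the strain LOC3 and then LPS. RNA was taken 3 h after LPS in all 3 groups, and the strains were present for 12 h before it by the sample labels, while the methods of the study give a longer time. The LPS dose also differs between the methods and the results of the study. Each group has 1 array, which leaves no spread between cultures and no test between conditions. Unchallenged macrophages are not analysed here as an array of their own, and enter only through the log2 ratios that the authors deposited.

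A JAK binds the inner part of a cytokine receptor chain and is activated when the cytokine brings chains together. It then phosphorylates the receptor and the STAT that docks there, and the STAT dimer moves to the nucleus and binds DNA. Macrophages exposed to LPS make interferon beta, IL-6 and IL-10, which act back on the same cells, interferon through JAK1, TYK2 and STAT2, and IL-6 and IL-10 mainly through STAT3. SOCS proteins, themselves STAT targets, shut the pathway off. The arrays measure transcript levels, whereas JAK and STAT proteins are switched by phosphorylation, which is not measured here. In a bulk culture, fewer cells and less RNA per cell cannot be told apart.

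Values are background-subtracted intensities, and differences are log2 differences after each array was scaled by its 75th percentile, which was an intensity of 555 on the LPS array, 513 on the LOC1 array and 516 on the LOC3 array. Intensities of different probes are not comparable, so each probe is set only against itself on another array. The scatter between spots of 1 array was read from 300 probes printed 10 times, and gave a technical SD of a log2 difference of 0.06 for bright probes in both strain comparisons. For dim probes, those more than 2-fold under the 75th percentile, it was 0.28 for LOC1 and 0.31 for LOC3, from 10 to 12 probes per array. This SD leaves out the variation between cultures, so a difference many times larger than it shows only that 2 arrays differ. The LOC1 and LOC3 comparisons share the LPS array. All 9 macrophage markers listed were well above background on the 3 arrays, with 0 of them past 2-fold with either strain. Of the T cell markers, Lck lay between intensities of 3086 and 4935, Cd4 between 738 and 895 and Cd3e between 396 and 451, while Cd3g, Cd8a and Cd2 were not well above background on any array. Of the B cell markers, Cd79a and Cd79b were not well above background while Ms4a1 and Pax5 were dim, Ms4a1 at 29.0 with LPS and 55.9 with LOC1, a log2 difference of 1.06, and of the epithelial markers Epcam alone was seen, at 20.7 on the LPS array. The part of these other markers in the results was not tested.

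Probes of 1 gene read different stretches of its transcripts, and some of the results turn on which stretch is read. The next sequences are those of some of the probes of genes with several, either because they carry a deposited LPS ratio, as for Jak2 and Stat2, or because another probe of the gene gave another result, as for Jak3 and Stat5a. All are on the mm9 build, 60 bases long and written 5′ to 3′ in lower case. They lie at chr19:29363211-29363270 (Jak2, plus strand), chr8:74210801-74210860 and chr8:74214085-74214144 (Jak3, plus), chr10:127719861-127720302 (Stat2, plus) and chr11:100745240-100745299 (Stat5a, plus). The 60 bases of the Stat2 probe span 442 bases of the genome, so that it reads across a splice junction.
Jak2 A_52_P309376: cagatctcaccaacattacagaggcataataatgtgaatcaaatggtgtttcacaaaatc
Jak3 A_55_P2010912: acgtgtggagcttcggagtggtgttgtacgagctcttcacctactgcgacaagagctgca
Jak3 A_51_P355360: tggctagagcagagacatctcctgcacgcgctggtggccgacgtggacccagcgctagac
Stat2 A_66_P102138: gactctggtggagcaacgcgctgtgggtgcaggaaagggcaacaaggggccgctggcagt
Stat5a A_66_P115018: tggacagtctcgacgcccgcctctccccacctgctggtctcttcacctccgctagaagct

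The promoters of the members were searched for the letters that STAT dimers and the STAT2 complex are known to bind. The GAS letters TTCNNNGAA, bound by STAT dimers, were in 0 of the 11 promoter windows of the 9 genes, each of 250 bases before and 50 after a RefSeq start site, and in 8.30% of all 32851 windows. The ISRE letters GAAANNGAAA, or TTTCNNTTTC on the other strand, bound by the complex of STAT2 with IRF9, were in 2 of the 11 windows and in 3.44% of all. The windows with a match belong to Stat2, 222 bases before its start, and to 1 of the start sites of Stat4, 97 bases before it. The stretches around both are shown because Stat2 was well above background on every array and Stat4 on none. They are RefSeq sequence of GRCm38.p6 at chr10:128270248-128270327 and chr1:52008108-52008187, both on the plus strand, with the matched letters in capitals. A match is a description of the sequence and not a site shown to be bound.
Stat2 promoter: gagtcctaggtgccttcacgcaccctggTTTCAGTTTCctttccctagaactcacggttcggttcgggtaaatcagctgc
Stat4 promoter: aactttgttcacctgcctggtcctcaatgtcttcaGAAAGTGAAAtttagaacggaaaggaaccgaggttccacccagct

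Against unchallenged macrophages, at least 1 probe of Jak2, Jak3, Tyk2, Stat2 and Stat3 was listed as higher with LPS past 2-fold, and no member was listed as lower. Of the 16 member probes well above background with LPS, 7 were listed as higher, which is 43.8%, beside 10.3% of all probes well above background, and 0 were listed as lower, beside 6.68%. By gene, 5 of the 8 members detected had a probe listed as higher, beside 13.6% of all genes, and 0 had one listed as lower, beside 9.11%. Members with several probes have more chances to be listed. The deposited table holds 13135 probes, and 9 of the 17 member probes are not among them. A probe left out of the table was not shown to be unchanged, because 19 of 151 probes that are well above background on the 3 arrays and span over 4-fold between them are also left out.

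The kinase JAK2 serves receptors for interferon gamma, IL-12, IL-3 and GM-CSF, and its probe A_52_P309376 had the largest deposited LPS ratio among the members, a log2 ratio of 3.80, or 13.9-fold. The ratio was 4.08 with LOC1 and 4.0 with LOC3. The brighter Jak2 probe, A_66_P106863, has no deposited ratio in any group. Stat2, the DNA-bound partner of IRF9 in the type I interferon response, had a log2 ratio of 3.01 with LPS on its junction probe A_66_P102138, or 8.08-fold, with 3.1 after LOC1 and 3.14 after LOC3. The brighter Stat2 probe, A_55_P2059606, has no deposited ratio either, so these LPS ratios are those of the weaker probes. Tyk2, the kinase of the interferon alpha and beta receptor, had a log2 ratio of 1.94 on A_51_P466824, or 3.83-fold, against 1.70 with LOC1 and 1.90 with LOC3. These ratios lay past 2-fold in each group, while the dim Tyk2 probe A_55_P2738317 was blank with LPS, where 0.79 was rebuilt. Stat3, the factor downstream of IL-6 and IL-10, had a log2 ratio of 1.89 on A_51_P201480 and of 1.93 on A_55_P1991219, or 3.71-fold and 3.82-fold. Both Stat3 probes thus gave a similar LPS ratio although they lie in separate parts of the gene. With the strains, the first was at 1.96 for LOC1 and 2.16 for LOC3, and the second at 1.79 and 1.84. Jak3, the kinase of the common gamma chain used by IL-2, IL-4, IL-7 and IL-15 receptors, had a log2 ratio of 1.16 on A_55_P2728208, or 2.23-fold. That ratio was 1.86 with LOC1 and 1.88 with LOC3, so that this probe was past 2-fold with LPS alone and further from the unchallenged level with either strain. The other Jak3 probes have no deposited ratio.

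**Figure D1:**
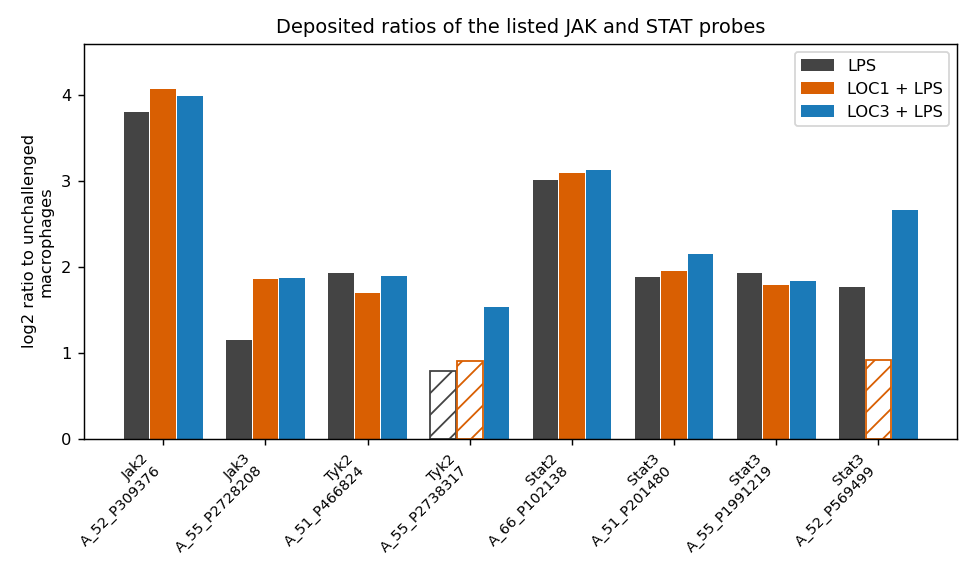
Deposited log2 ratios to unchallenged macrophages (vertical axis) for the 8 member probes in the deposited table, by group, 1 array each. Filled bars are listed values and hatched bars are blank cells rebuilt from the intensities, all under 2-fold. The bars of Jak2 (3.80 to 4.08) and of the Stat2 junction probe (3.01 to 3.14) are the tallest, and the bars of Jak3 are lower with LPS alone than with a strain.

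With the strains, 0 of the 8 members detected differed from LPS past 2-fold, beside 6.35% of all genes with LOC1 and 6.22% with LOC3. Higher by that threshold were 2.5% of all genes with LOC1 and 3.02% with LOC3, and lower were 3.85% and 3.2%. At these shares a group of 8 genes would hold few calls in any case, so a count of 0 says little about the members. The median difference of the 8 members was 0.10 with LOC1 and 0.24 with LOC3, and their median size without sign was 0.24 with each strain, beside 0.26 and 0.23 for all genes. Their differences ran from -0.27 to 0.67 with LOC1 and from -0.19 to 0.69 with LOC3, with 6 above 0 and 2 below in each. At 1.5-fold, Jak3 alone was counted with each strain, beside 19.2% and 17.4% of all genes. The signs of small differences depend on the scaling: scaled by the median, the median of all genes itself lay at 0.22 with each strain, and the genes past 2-fold with LOC1 went from 500 higher and 772 lower to 886 and 479. With LOC3 they went from 598 and 634 to 875 and 398. Quantile normalization gave 629 higher and 617 lower with LOC1, and normexp background correction gave 213 and 209 with LOC1 and 252 and 159 with LOC3.

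**Figure D2:**
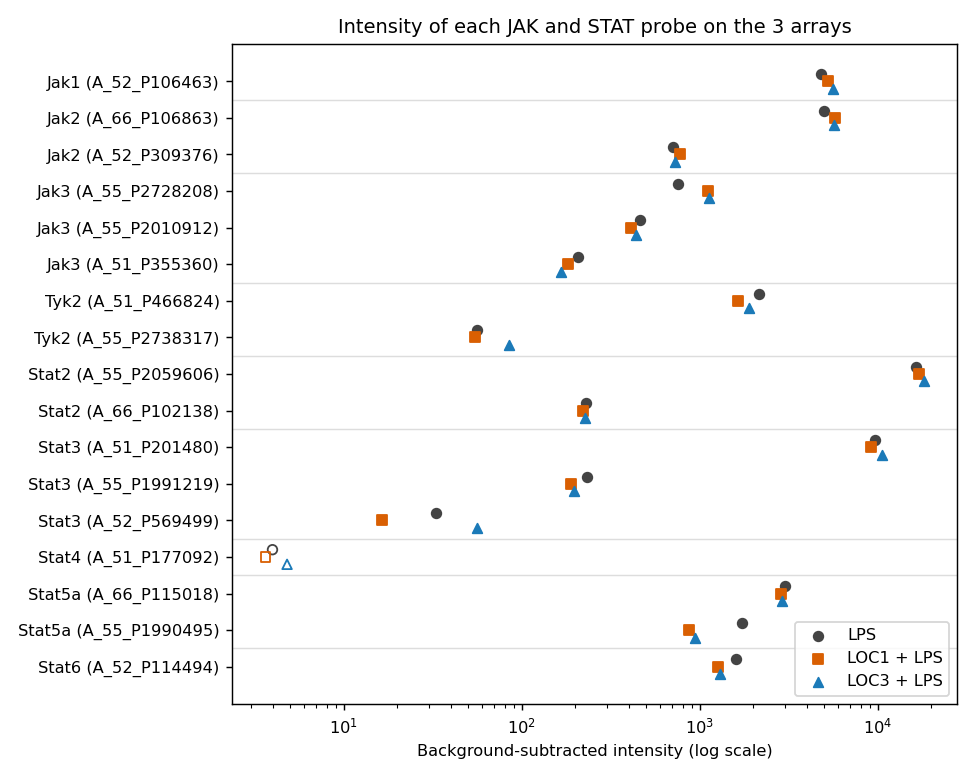
Background-subtracted intensity (horizontal log axis) of the 17 member probes on the 3 arrays, 1 point per array. Open points mark signals not well above background, which are those of Stat4. For most probes the 3 points lie close together, and those of Stat3 A_52_P569499 and Stat5a A_55_P1990495 lie apart.

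Of the kinases, Jak1, which serves interferon, IL-6 and IL-10 receptors, gave intensities of 4773 on the LPS array, 5281 on the LOC1 array and 5575 on the LOC3 array (chr4:100825094-100825153, minus strand). Both strain arrays lay above the LPS array, by a log2 difference of 0.26 for LOC1 and 0.33 for LOC3, which is 4.55 and 5.13 times the technical SD. Jak2 gave intensities of 4957 on the LPS array, 5736 on the LOC1 array and 5689 on the LOC3 array on A_66_P106863 (chr19:29386381-29386440, plus strand). Its differences were 0.32 and 0.30, and the strain arrays did not separate from each other, at -0.02 for LOC3 minus LOC1. The other Jak2 probe, A_52_P309376, gave intensities of 702 on the LPS array, 769 on the LOC1 array and 729 on the LOC3 array, and its differences were 0.24 and 0.16. The probes of Jak2 therefore lay on the same side of LPS. For Jak1 and Jak2 the direction held under every alternative scaling and background correction that was run.

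By the brightest probe of each gene, Jak3 had the largest strain difference among the kinases, and it was seen by 1 of its 3 probes. A_55_P2728208 (chr8:74204097-74204161, plus strand) gave intensities of 754 on the LPS array, 1112 on the LOC1 array and 1129 on the LOC3 array. Both strain arrays were higher, by 0.67 and 0.69 on the log2 scale, which is 11.9 and 10.7 times the technical SD, and they differed from each other by 0.01. A_55_P2010912, further along the gene, gave intensities of 460 on the LPS array, 411 on the LOC1 array and 437 on the LOC3 array, with differences of -0.05 and 0.03. The dim probe A_51_P355360 gave intensities of 206 on the LPS array, 182 on the LOC1 array and 166 on the LOC3 array, with differences of -0.07 and -0.21, which are smaller than its technical SD. Neither of these probes followed the first, whose accession matched no RefSeq gene. The accessions of A_51_P355360 also name Insl3, which encodes an insulin-like hormone and overlaps Jak3 in the RefSeq annotation, so that its signal cannot be given to 1 of the genes. Averaged over its detected probes, the Jak3 difference was 0.19 with LOC1 and 0.17 with LOC3.

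Tyk2 was the only kinase whose brightest probe lay on the lower side with both strains. A_51_P466824 (chr9:20909321-20909380, minus strand) gave intensities of 2146 on the LPS array, 1647 on the LOC1 array and 1890 on the LOC3 array. The LOC1 array lay below LPS by a log2 difference of -0.27, or 4.74 times the technical SD, and the LOC3 array by -0.08, or 1.24 times. Under median scaling these were -0.053, within the technical SD, and 0.10, and for the mean of the detected probes -0.095 and 0.31. LOC3 lay 0.19 above LOC1. The dim probe A_55_P2738317 (chr9:20927943-20928002, minus strand) gave intensities of 55.7 on the LPS array, 54.4 on the LOC1 array and 84.4 on the LOC3 array, so that the LOC3 array stood apart. Its accession matched no RefSeq gene. LOC1 thus lay 0.08 and LOC3 0.70 above LPS on the log2 scale, and the latter was 0.41 under the other background correction.

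**Figure D3:**
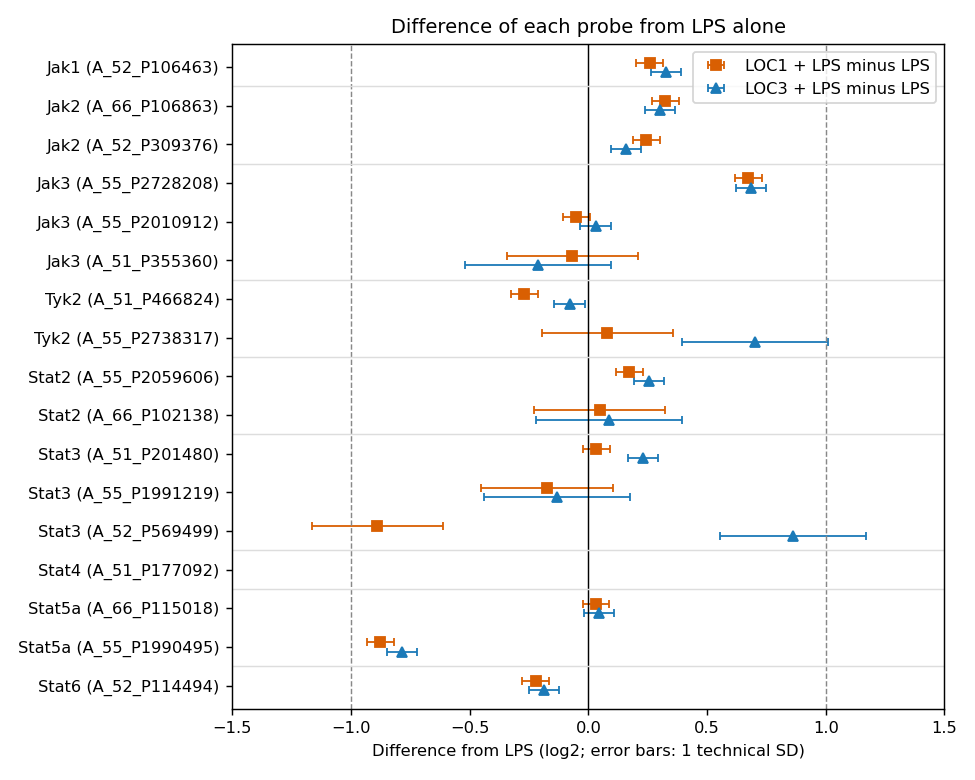
Log2 difference of each member probe from LPS alone (horizontal axis) with LOC1 (squares) and LOC3 (triangles), 1 array per group; bars are 1 technical SD, read from probes printed 10 times on an array, and dashed lines mark 2-fold. Jak3 A_55_P2728208 lies at 0.67 and 0.69, Stat5a A_55_P1990495 at -0.88 and -0.78, and the strains lie on opposite sides for Stat3 A_52_P569499. Stat4 has no point because it was not well above background.

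Of the factors, Stat2 gave intensities of 16457 on the LPS array, 17144 on the LOC1 array and 18295 on the LOC3 array on A_55_P2059606 (chr10:127729834-127729893, plus strand). Both strain arrays lay above LPS, by 0.17 and 0.26 on the log2 scale, which is 3.02 and 4.01 times the technical SD. The junction probe gave intensities of 230 on the LPS array, 220 on the LOC1 array and 228 on the LOC3 array, and its differences of 0.05 and 0.09 were under its technical SD. Stat6, the factor activated by IL-4 and IL-13, gave intensities of 1593 on the LPS array, 1263 on the LOC1 array and 1301 on the LOC3 array (chr10:127097689-127097748, plus strand). It lay below LPS by log2 differences of -0.22 and -0.19, or 3.91 and 2.95 times the technical SD. Under median scaling both shrank to -0.0055 and -0.0047. Stat4, the factor of the IL-12 receptor, was not well above background on any array, with intensities of 4.0, 3.6 and 4.8 (chr1:52163802-52163861, plus strand), so no difference is given.

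Stat3 depended on the probe and on the strain. A_51_P201480 (chr11:100749598-100749657, minus strand) gave intensities of 9670 on the LPS array, 9150 on the LOC1 array and 10555 on the LOC3 array. LOC1 was within the technical SD of LPS, at 0.03, while LOC3 lay above it by 0.23, or 3.60 times the technical SD, and above LOC1 by 0.20. The dim probe A_55_P1991219 gave intensities of 231 on the LPS array, 190 on the LOC1 array and 196 on the LOC3 array, with differences of -0.17 and -0.13 that are under its technical SD. The dim probe A_52_P569499 (chr11:100746462-100746521, minus strand) gave intensities of 32.9 on the LPS array, 16.4 on the LOC1 array and 55.8 on the LOC3 array. Its accession matched no RefSeq gene. Its strain arrays lay on opposite sides of LPS, by -0.89 and 0.86 on the log2 scale. These shrank to -0.19 and 0.42 under the other background correction, on whose scale no technical SD was computed. Between the strains it differed by 1.75, or 3.37-fold, which made it the only one of the 16 member probes past 2-fold in any comparison, and this shrank to 0.61 under the other background correction. Under median scaling its LOC3 difference from LPS was also past 2-fold, at 1.05. Against unchallenged macrophages its deposited log2 ratio was 1.77 with LPS and 2.67 with LOC3 and blank with LOC1, where 0.91 was rebuilt. The unchallenged level implied by these ratios is an intensity of 9.66, under the lowest signal well above background, so that the LPS difference is given only as at least 2.02-fold.

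Stat5a, the factor of IL-3, GM-CSF and IL-2 receptors, gave different results at its probes. A_66_P115018 gave intensities of 3018 on the LPS array, 2854 on the LOC1 array and 2898 on the LOC3 array. Its log2 differences of 0.03 and 0.04 were within the technical SD. A_55_P1990495 (chr11:100746373-100746432, plus strand), whose near end lies 1073 bases further along, gave intensities of 1735 on the LPS array, 874 on the LOC1 array and 938 on the LOC3 array. Both strain arrays were lower there, by log2 differences of -0.88 and -0.78, or 1.84-fold and 1.72-fold, which is 15.5 and 12.3 times the technical SD. Over all alternatives these ran from -0.91 to -0.66 with LOC1 and from -0.82 to -0.60 with LOC3. The strains differed from each other by 0.09. Stat3 lies on the opposite strand next to Stat5a on chromosome 11, and 29 bases separate A_55_P1990495 from the Stat3 probe A_52_P569499, while 3076 bases separate the latter from A_51_P201480. Whether the transcripts read by these neighbouring probes are those of the named genes was not tested.

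Between the strains, 0 of the 8 members differed past 2-fold by the probe that represents the gene, beside 2.69% of all genes. The median of LOC3 minus LOC1 was 0.05 and its median size without sign also 0.05, beside a size of 0.09 for all genes. Stat3 at 0.20 and Tyk2 at 0.19 were the largest, both higher with LOC3.

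Around the members, 125 genes of 8 lists give the ligands, receptors, inhibitors, partners and targets of the pathway. Past 2-fold from LPS were 23 of them with LOC1 and 20 with LOC3. These totals hold genes detected on 1 array of the comparison, which could be counted in 1 direction only. Where both arrays had to be well above background, they were 20 and 16. The count of 0 for the members says little beside them, because the members are few. No list was tested as a set, and the counts are set beside the shares of all genes given above. Several of these counts depend on the scaling. A gene of a list counts as listed with LPS if any of its probes is, while its strain difference is that of its brightest probe.

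Of 23 cytokine ligands, 14 were well above background on both arrays with LOC1 and 12 with LOC3, and 3 of these were higher past 2-fold with each strain, while 3 were lower with LOC1 and 1 with LOC3. Interferon beta, Ifnb1, gave intensities of 1251 on the LPS array, 29911 on the LOC1 array and 18123 on the LOC3 array, a log2 difference of 4.69 and 3.96. GM-CSF, Csf2, lay at 2.36 and 1.52 and Il6 at 1.40 and 1.23, all higher with both strains. Lower were Il12b, the shared subunit of IL-12 and IL-23, at -2.07 and -1.79, Il10 at -1.21 and -0.47, and Ebi3, a subunit of IL-27, at -1.09 and -0.82. Il27, for the other subunit, lay above LPS but under 2-fold, at 0.73 and 0.60. Under median scaling 1 ligand was lower past 2-fold with LOC1, since Il10 and Ebi3 were no longer past it. Il3 and Il2 were well above background with LOC3 only, so that they could be counted only as higher, at least 9.11-fold and 3.12-fold higher than with LPS. Listed as higher with LPS were 11 of the 15 ligands detected, and 0 as lower.

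Of 32 receptor chains, 1 was higher and 5 lower with LOC1 among 26, and 1 higher and 4 lower with LOC3 among 25. The GM-CSF receptor beta chain Csf2rb, which binds JAK2, gave intensities of 15928 on the LPS array, 4636 on the LOC1 array and 5905 on the LOC3 array, a log2 difference of -1.67 and -1.33. Its relative Csf2rb2, the beta chain for IL-3, lay at -1.36 and -1.18, and both are close copies whose probes may share signal. Il6ra lay at -1.24 and -1.0, and Il4ra, through which IL-4 acts on STAT6, at -1.02 and -0.76. Lifr was detected on the LPS array alone and could be counted only as lower, which puts it at least 2.76-fold lower for LOC1 and 2.03-fold for LOC3. The IL-7 receptor Il7r, which pairs with JAK1 and JAK3, was higher, with intensities of 227 on the LPS array, 1281 on the LOC1 array and 893 on the LOC3 array. Listed with LPS were 9 of 25 receptors as higher and 4 as lower. The split depends on the scaling: under median scaling 3 were higher and 4 lower with LOC1, and 2 higher and 1 lower with LOC3. Under the other background correction 1 was higher with each strain, and 3 were lower with LOC1 and 2 with LOC3. The median of the list was -0.09 with LOC1 and -0.12 with LOC3, and became 0.13 and 0.06 under median scaling.

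Of 19 inhibitors, 1 was past 2-fold with each strain. Cish, a STAT5-induced SOCS protein, gave intensities of 2234 on the LPS array, 821 on the LOC1 array and 826 on the LOC3 array, a log2 difference of -1.33 with both. Listed with LPS were 7 as higher and 2 as lower. Of 8 partners and adaptors, 0 were past 2-fold with either strain. Stam2, an adaptor bound by JAKs, had the largest LOC1 difference, 0.65, with 0.43 for LOC3.

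**Figure D4:**
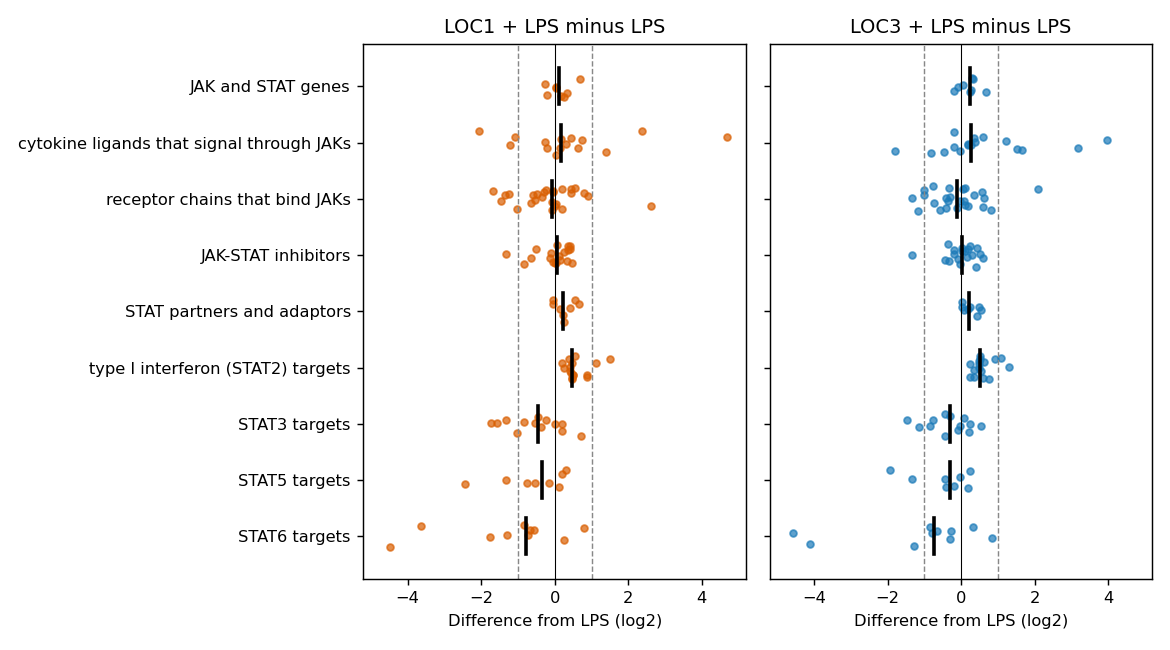
Log2 difference from LPS (horizontal axis) of the genes of each list with LOC1 (left) and LOC3 (right); each point is 1 gene by its brightest probe, black bars are list medians and dashed lines mark 2-fold. The JAK and STAT genes lie between -0.27 and 0.69, while ligands, receptors and STAT6 targets, some of them detected on 1 array of the comparison alone, spread past 2-fold, and all type I interferon targets lie above 0.

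The target lists differed in where their members lay. All 16 type I interferon targets, which STAT2 drives, lay above 0 with both strains, under median scaling, quantile normalization and the other background correction too, with a median of 0.47 with LOC1 and 0.52 with LOC3. Past 2-fold were 2, Ifit3 at 1.5 and 1.29 and Cmpk2 at 1.12 and 1.08, both antiviral genes. Under median scaling 4 were past it with LOC1 and 3 with LOC3, and under quantile normalization 1 with each. All 16 were listed as higher with LPS. Irf9, the partner of STAT2, lay at -0.06 and 0.01. Of 13 STAT3 targets, 4 were lower past 2-fold with LOC1 and 2 with LOC3, with medians of -0.44 and -0.29, and 11 were listed as higher with LPS. Under median scaling the medians were -0.23 and -0.11, with 6 genes above 0 and 7 below for LOC3. The corepressors Sbno2 and Etv3, which act in the IL-10 response, lay at -1.74 and -1.16 and at -1.57 and -1.47. Bcl3, a nuclear IkB protein, lay at -1.33 and -0.84, and Il4ra is also on this list.

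Of 8 STAT5 targets, 2 were lower past 2-fold with each strain, with medians of -0.35 and -0.30, and 6 were listed as higher with LPS. Under median scaling the medians were -0.13 and -0.12, with 4 genes above 0 and 4 below for LOC1. Id1, an inhibitor of helix-loop-helix factors, gave intensities of 7879 on the LPS array, 1353 on the LOC1 array and 1923 on the LOC3 array, and Cish was the other. Of 14 STAT6 targets, 7 were well above background on both arrays of each comparison, and 2 of them were lower past 2-fold with each strain, with medians of -0.66 and -0.67. With the genes detected on the LPS array alone, which could come out only as lower, 10 were compared, with medians of -0.78 and -0.74, or -0.39 and -0.28 under the other background correction. The chemokines Ccl17 at -4.48 and -4.56 and Ccl24 at -3.63 and -4.11 were the furthest. Of the genes detected with LPS alone, the mannose receptor Mrc1 was at least 3.40-fold lower with LOC1. It was 2.43-fold lower with LOC3, from an undetected intensity of 20.4 kept as measured. Ccl22 was at least 2.44-fold and 1.80-fold lower. Listed with LPS were 2 of the 10 as higher and 1 as lower.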

How the data were processed

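RNA from macrophages treated with LPS, LOC1 and LPS, or LOC3 and LPS was hybridised to 1-colour Agilent mouse arrays, 1 per group. Intensity values were deposited by the authors from Feature Extraction 12.0.3.1, background-subtracted and detrended within each array, with no scaling between arrays; the methods name another version. Deposited log2 ratios cover 13135 probes, relative to 1 common reference, the unchallenged macrophages, with values under 2-fold left blank. The notes of the submitters name limma and R 3.2.5.

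Outlier spots were left out, and log2 intensity less the 75th percentile was compared between arrays. A gene was represented by its brightest detected probe, and compared where at least 1 of the 2 arrays showed it well above background. Undetected signals below the lowest detected signal (16.3, 14.5 and 19.8) were set to it, which gives bounds written as at least N-fold. Undetected signals above it were kept as measured. A 2-fold threshold was used, since no test is possible with 1 array per group, and the t-test of the methods was not run. The number of arrays limits the precision. The members and lists were chosen with earlier results of these data known. The genes named are all members and, of each list, those past 2-fold with either strain, or else the gene with the largest LOC1 difference. Irf9, Il27 and the repeats across lists were added. Alternatives were scaling by the median, normalization by quantiles, background correction by normexp with an offset of 50 (limma 3.58.1, R 4.3.3), other filters, the mean of the detected probes, outliers kept, a 1.5-fold threshold and the deposited ratios. Positions of probes are on mm9, from the files, and promoters are from RefSeq GRCm38.p6. By accession, 14 of the 17 member probes matched a RefSeq gene. Python 3.11.15, numpy 2.4.6, pandas 2.3.3 and matplotlib 3.10.9 were used. The procedure was run on simulated data with planted changes past the threshold, all genes detected and the scatter of bright probes. That run does not cover dim probes, undetected signals or variation between cultures. A marker gene of the lists and a probe sequence are not reported here.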

Additional observations from a re-analysis of the deposited data

Results flagged for a closer look

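The Stat3 probe A_52_P569499 was singled out because the strains lay on opposite sides of LPS, each by more than the technical SD of a dim probe. Its log2 difference from LPS was -0.89 with LOC1 and 0.86 with LOC3. With normexp background correction these shrank to -0.19 and 0.42, and no technical SD was computed on that scale. The difference between the strains was not tested, since each has 1 array. The probe is dim, with an intensity of 16.4 with LOC1 on an array whose lowest signal well above background was 14.5.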

How the results depend on the processing

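No paired analysis was possible because each group has 1 array. The median difference of the members, 0.10 with LOC1 and 0.24 with LOC3, became 0.32 and 0.43 under median scaling and 0.063 and 0.16 under quantile normalization. With LOC1 it was 0.033 with no filter and no floor, and 0.0074 for the mean of the detected probes. With a threshold of 1.5-fold, 1 member was counted with LOC1 and 1 with LOC3 in place of 0, and the genes of the lists went from 23 to 40 with LOC1 and from 20 to 37 with LOC3. Of 24 differences of the members, 16 moved by more than the technical SD under median scaling, 13 for the mean of the detected probes and 4 under quantile normalization, and 0 reached 2-fold under any alternative. Stat3 with LOC1 and Stat5a with both strains changed sign among the alternatives, down to -0.34, -0.42 and -0.37 for the mean of the detected probes, and Tyk2 with LOC3 reached 0.31 there. Why these settings moved the values was not tested. Differences of dim probes are limited by their signal over background.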
